A study of Mus musculus with 16 samples.

Results

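The genes described here encode the folding machinery of the endoplasmic reticulum (ER) and the sensors and effectors of the unfolded protein response (UPR). A list of 37 mouse gene symbols was matched to the 57186 gene IDs of the count table, and all 37 were found, of which 36 had enough counts to be tested among 15206 genes. The remaining one, Derl3, a derlin of the ER membrane, had 0 to 7 counts per library. The samples were left ventricles of C57/BL6N mice in 4 groups of 4 libraries: WT after sham surgery, WT after transverse aortic constriction (TAC, a surgical narrowing of the aortic arch that makes the ventricle pump against a higher pressure), and the same 2 operations in mice with a cardiomyocyte-specific knockout of the transcription factor gene Tfeb (labelled cKO-TFEB). Each library came from a separate mouse according to the labels, which call the replicates biological. The Cre line, the age and sex of the mice, the time after surgery and whether the WT mice carried a floxed allele or Cre are not given in the sources used here. Because the knockout was made in cardiomyocytes and the tissue is a whole ventricle, the other cell types in these libraries keep their Tfeb gene. Tfeb stood at 36.5 ± 3.94 CPM (each count relative to its library total, scaled for library composition; SD, n = 4) in the WT sham group and 10.5 ± 1.74 in cKO sham, and after TAC at 29.1 ± 9.77 in WT and 12.7 ± 2.34 in cKO, so the cKO libraries match their label.

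Proteins that enter the secretory pathway pass through the Sec61 channel into the ER, where the HSP70 protein BiP (Hspa5) and its J-protein partners, the lectin chaperones calreticulin and calnexin, and the disulfide isomerases help them fold. Proteins that fail are pulled back out and degraded, which is called ER-associated degradation. When unfolded proteins build up, the membrane sensors IRE1 (Ern1), ATF6 and PERK (Eif2ak3) signal to the nucleus and to the ribosome, and BiP and many of its neighbours are textbook targets of this response. In the heart, pressure overload is known to bring on both growth of cardiomyocytes and collagen secretion by fibroblasts, and collagen has folding helpers of its own, such as the collagen chaperone HSP47 (Serpinh1). The counts are per gene, so they do not separate spliced from unspliced Xbp1 messenger RNA, and activation of the sensors as proteins was not measured.

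The promoters of these genes show which of them carry the element that ATF6 and NF-Y are known to bind, the ER stress response element (ERSE). RefSeq promoter windows on GRCm38.p6, 250 bases before to 50 after the start, were at hand for 32 of the 37 genes. The motif, CCAAT followed after any 9 bases by CCACG and searched on both strands, occurred in 10 of the 32 windows (31.2%), against 39 of 32851 windows of the same length in the table (0.119%). The shorter ERSE-II, ATTGG followed after any 1 base by CCACG, which shares its CCACG end with ERSE, occurred in Dnajb11 and Herpud1 (6.25%, against 0.0365% of all windows). Each match is written below in its own reading direction, with the fixed letters of the motif in capitals. In the Hspa5 window the match begins 65 bases before the start, in Syvn1 44 bases before it, and in Dnajb11 inside the transcript.
Hspa5: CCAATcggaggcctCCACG
Hsp90b1 (farther from the start): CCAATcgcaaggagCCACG
Hsp90b1 (nearer the start): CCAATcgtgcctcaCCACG
Dnajc3: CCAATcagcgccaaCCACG
Calr: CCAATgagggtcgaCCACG
Canx: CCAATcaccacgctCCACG
Pdia6: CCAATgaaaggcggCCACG
Ero1lb: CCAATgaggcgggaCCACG
Creld2: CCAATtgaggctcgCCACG
Syvn1: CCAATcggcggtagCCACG
Derl3: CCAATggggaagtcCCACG
Dnajb11: ATTGGcCCACG
Herpud1: ATTGGgCCACG

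The UPR element TGACGTGG and the ATF4 element TGATGNAAT were in none of the 32 windows (0.676% and 0.965% of all windows). Each was searched in this spelling alone. The Hspa5 sequence below holds TGACGTGA, which differs from the UPR element in its last letter. The palindrome TCACGTGA, the core of the CLEAR element known as the TFEB site, was in the Calr window alone (3.12%, against 0.974% of all windows); it shares the letters ACGTG with the UPR element. A match or its absence describes letters in these windows and says nothing of binding. For the 4 genes that the results below return to most often, the 250 bases before the start are given, with matches to ERSE or ERSE-II in capitals. Hspa5 lies at chr2:34771840-34772089 on the plus strand, Herpud1 at chr8:94386179-94386428 on the plus strand, P4hb at chr11:120573254-120573503 on the minus strand and Serpinh1 at chr7:99353240-99353489 on the minus strand.
Hspa5: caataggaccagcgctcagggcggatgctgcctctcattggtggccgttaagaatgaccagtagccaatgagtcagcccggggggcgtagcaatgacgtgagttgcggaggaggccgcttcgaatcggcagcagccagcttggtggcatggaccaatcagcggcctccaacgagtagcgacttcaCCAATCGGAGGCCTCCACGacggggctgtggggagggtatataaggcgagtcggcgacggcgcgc
Herpud1: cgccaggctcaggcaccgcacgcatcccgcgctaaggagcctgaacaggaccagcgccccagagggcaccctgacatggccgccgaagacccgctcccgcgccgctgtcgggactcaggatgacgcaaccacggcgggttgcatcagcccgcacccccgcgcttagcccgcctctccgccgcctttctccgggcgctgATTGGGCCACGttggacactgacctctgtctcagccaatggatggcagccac
P4hb: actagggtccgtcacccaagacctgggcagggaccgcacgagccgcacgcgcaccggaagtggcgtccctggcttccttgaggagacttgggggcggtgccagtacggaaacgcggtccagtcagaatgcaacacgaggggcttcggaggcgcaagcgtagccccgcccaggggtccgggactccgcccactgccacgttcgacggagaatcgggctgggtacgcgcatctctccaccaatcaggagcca
Serpinh1: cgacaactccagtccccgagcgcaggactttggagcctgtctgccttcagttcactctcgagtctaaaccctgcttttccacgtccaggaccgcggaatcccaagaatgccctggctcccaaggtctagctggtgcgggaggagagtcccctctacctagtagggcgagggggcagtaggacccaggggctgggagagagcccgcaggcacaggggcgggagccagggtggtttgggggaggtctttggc

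Libraries held 12946878 to 16347388 counts. All 8 cardiomyocyte markers were detected in every group, with a summed level of 60390 to 70890 CPM in sham and 41070 to 62680 CPM in TAC libraries, and Myl2, the ventricular myosin light chain, stood at 2529 to 8283 CPM. A pair of WT libraries had the highest sums of the atrial transcripts Myl7, Sln, Myl4, Bmp10 and Stard10: 2597 CPM in WT sham replicate 3 and 869 CPM in WT TAC replicate 4, against 16.2 to 300.2 CPM in the other libraries. With Nppa, which pressure load is known to raise in the ventricle, the sum was 981 to 1949 CPM in cKO TAC and 191 to 1402 CPM in WT TAC. Summed markers of activated fibroblasts, such as Postn, ranged from 210.2 to 358 CPM in the WT sham libraries and from 731 to 1323 after TAC, and in cKO from 314 to 486 CPM and from 1321 to 3545, with none of the 8 markers at 0 in a group. In bulk tissue, fewer cells of a type and less RNA per cell cannot be told apart.

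The levels of the module differed widely per length, taken as the merged length of all annotated exons of a gene. The order between genes depends on this length, which can exceed that of the messenger RNA present. On the scale of CPM per kilobase of exon, the mean over the 4 WT sham libraries was 114 ± 23.7 (SD, n = 4) for Hspa5, 102 ± 14.1 for Serpinh1, 95.6 ± 8.89 for calreticulin (Calr) and 79.0 ± 22.3 for Herpud1, whose product helps the degradation complex assemble in the ER membrane. P4hb, a disulfide isomerase that is also the beta subunit of collagen prolyl 4-hydroxylase, followed at 70.9 ± 2.83. The WT sham ranges of neighbours in this order overlapped down to P4hb. The P4hb range stood clear of Canx (calnexin) below it, at 53.0 ± 6.40, and of those of Hspa5, Serpinh1 and Calr above it, while the range of Herpud1 overlapped those of Hspa5, Serpinh1, Calr and P4hb. The order among Hspa5, Serpinh1, Calr and Herpud1 is not resolved. At the low end stood the sensor genes Ern1 (1.83 ± 0.231) and Eif2ak3 (1.51 ± 0.373) and the oxidase gene Ero1lb (0.887 ± 0.0785), whose range did not meet that of Eif2ak3. Atf6, at 10.1 ± 1.79, was higher per length than both other sensor genes in WT sham.

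**Figure D1:**
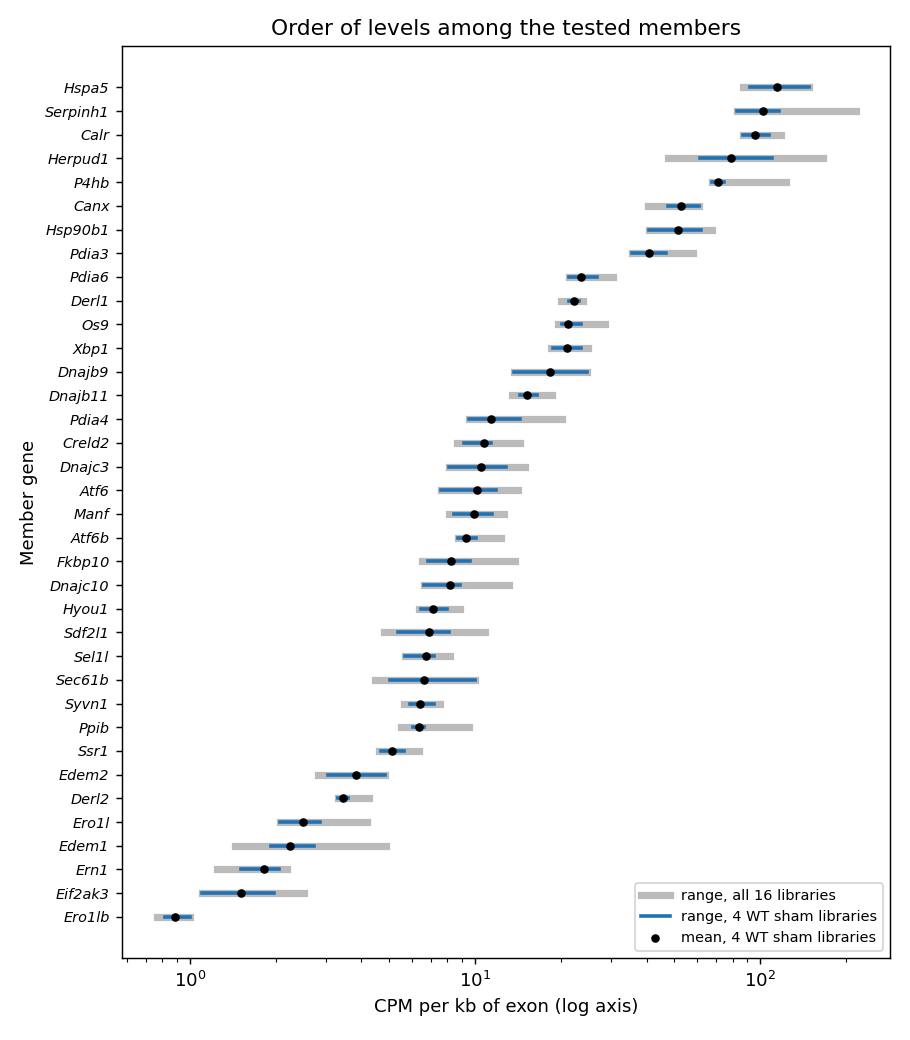
Level of each of the 36 tested genes in CPM per kilobase of exon on a log axis, with the mean of the 4 WT sham libraries (point), their range (blue bar) and the range of all 16 libraries (grey bar). Hspa5 leads at 114 and Ero1lb closes at 0.887, and the grey bars of Serpinh1, P4hb, Herpud1 and Edem1 reach well past the blue ones.

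In WT hearts TAC raised all 3 prolyl isomerase and collagen chaperone genes of the module, 3 of its 7 disulfide isomerase and oxidase genes and Edem1, while BiP and the UPR sensors did not pass the test. Of the 36 tested genes, 7 rose and 0 fell at an adjusted p under 0.05 (edgeR quasi-likelihood test, Benjamini-Hochberg over all 15206 genes), which is 19.4% of the members against a background of 15.8% of all genes called (9.7% higher, 6.14% lower). The 7 were Serpinh1, Edem1, Ppib, Pdia4, Fkbp10, Pdia3 and P4hb. The median log2 fold change was 0.19 over the members and -0.015 over all tested genes. In 10 members every WT TAC library was above every WT sham library, against 11.0% of all genes, and in 0 members was the reverse true (8.44% of all genes).

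All 3 members of the prolyl isomerase and collagen chaperone class passed. Serpinh1 stood at 248, 262, 285 and 203 CPM in the WT sham libraries and at 528, 379, 383 and 374 CPM in WT TAC. The groups did not overlap and replicate 1 of WT TAC was far above its fellows, and the log2 fold change was 0.74 (SE 0.16, adjusted p = 0.00429). Ppib encodes cyclophilin B, a prolyl isomerase that works on collagen. It went from 20.0, 21.3, 21.1 and 21.9 CPM to 31.1, 29.2, 26.4 and 29.9 CPM, a log2 change of 0.47 (SE 0.097, adjusted p = 0.00354), with tight groups and a clear gap. Fkbp10, which encodes the collagen-binding isomerase FKBP65, read 28.1, 20.1, 24.5 and 24.4 CPM in sham and 34.9, 30.5, 30.1 and 32.7 CPM in TAC. Its log2 change was 0.40 (SE 0.12, adjusted p = 0.0273). Fkbp10 overlaps Nt5c3b on the opposite strand, whose counts equal 88.5% of those of Fkbp10, and whether counting used strand is not given in the sources used here.

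Among the 7 disulfide isomerases and oxidases, 3 rose. Pdia3, the isomerase that works with the lectin chaperones, read 112, 147, 133 and 120.3 CPM in the WT sham libraries and 179.5, 150.4, 164 and 177 CPM in WT TAC. All TAC libraries were above all sham libraries, the nearest by a few CPM, and the log2 change was 0.39 (SE 0.11, adjusted p = 0.0226). P4hb read 201, 203, 214 and 194 CPM in sham and 298, 236, 236 and 260.3 CPM in TAC, with a log2 change of 0.34 (SE 0.091, adjusted p = 0.0164). Pdia4 moved from 27.4 ± 5.58 to 37.6 ± 2.05 CPM (SD, n = 4), a log2 change of 0.46 (SE 0.15, adjusted p = 0.0399). The rest of the class did not pass: Pdia6 at 0.24 (SE 0.099), the oxidase gene Ero1l at 0.34 (SE 0.14), its relative Ero1lb at 0.021 (SE 0.14) and Creld2 at 0.35 (SE 0.14), where adjusted p ranged from 0.0857 to 0.938. Creld2, a small ER protein induced in stressed cells, read 15.4, 15.5, 15.1 and 12.5 CPM in sham and 19.6, 15.9, 19.6 and 19.7 CPM in TAC, so the groups did not overlap but WT TAC replicate 2 was low.

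Of the 8 tested genes of ER-associated degradation, only Edem1 passed. Edem1 encodes a protein that trims mannose from glycoproteins bound for degradation. It read 13.2, 14.9, 17.7 and 12.5 CPM in the WT sham libraries and 26.4, 23.8, 24.7 and 21.1 CPM in WT TAC, a log2 change of 0.72 (SE 0.18, adjusted p = 0.0112), and the groups were well apart. Its relative Edem2 had a log2 change of -0.016 (SE 0.13). Herpud1 had the lowest estimate in the module, -0.38 (SE 0.21, adjusted p = 0.247). It read 148, 256, 144 and 189.5 CPM in the WT sham libraries and 111, 138, 149 and 169.9 CPM in WT TAC, and the groups overlapped.

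The lumenal chaperones and the UPR sensors did not pass in WT hearts. Hspa5 read 389, 625, 464 and 459 CPM in sham and 435, 475, 530.5 and 474 CPM in TAC, and the log2 change was -0.016 (SE 0.12, adjusted p = 0.946). The sham libraries spanned the whole range of the TAC libraries. Hsp90b1, the ER member of the HSP90 family, read 165, 251, 213 and 201 CPM against 203, 191, 237 and 226 CPM (log2 change 0.045, SE 0.12), and Calr read 261, 310.0, 278 and 252 CPM against 309.6, 289, 312 and 308 CPM (0.15, SE 0.096). The 3 sensor genes had log2 changes of -0.13 (SE 0.15) for Ern1, 0.048 (SE 0.11) for Atf6 and 0.35 (SE 0.15, adjusted p = 0.106) for Eif2ak3, and Xbp1, the target of IRE1 splicing, had 0.086 (SE 0.10). Ern1 read 12.4, 14.7, 15.8 and 16.8 CPM in sham and 15.0, 13.4, 14.1 and 11.9 CPM in TAC, and Xbp1 read 62.3, 76.4, 74.0 and 60.9 CPM against 64.0, 68.5, 81.0 and 76.8 CPM, both with overlapping groups. Eif2ak3 read 6.65, 9.70, 11.9 and 8.12 CPM in sham and 13.3, 11.6, 10.9 and 10.7 CPM in TAC, where the high sham library overlaps the TAC group. It passed without WT sham replicate 3 (adjusted p = 0.0199), as did Atf6b, a relative of Atf6, without WT sham replicate 1 or WT TAC replicate 4, while Atf6b had an adjusted p of 0.056 with all libraries.

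**Figure D2:**
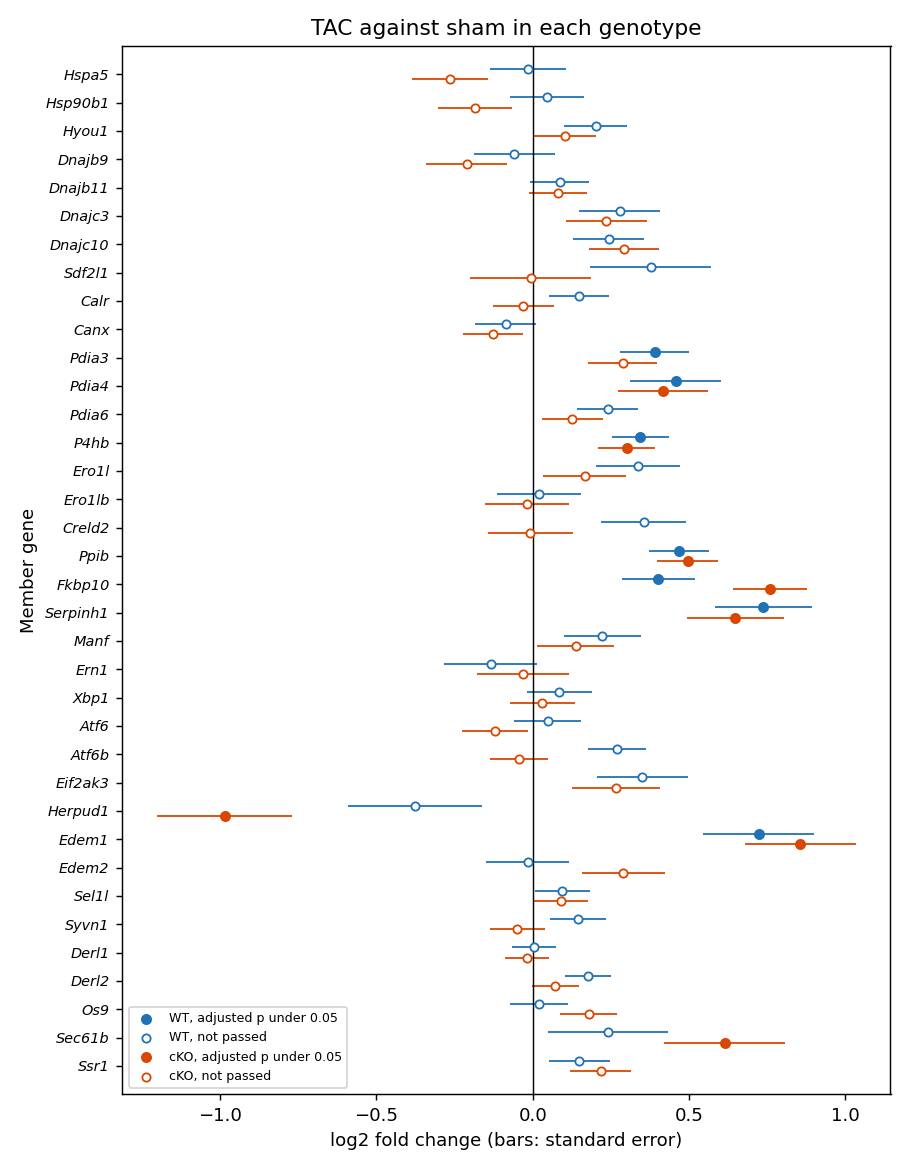
Log2 fold change of TAC against sham for each tested gene in WT (blue) and cKO (orange), with bars of 1 standard error and filled points where the adjusted p was under 0.05. Serpinh1, Fkbp10, Ppib and Edem1 are to the right of 0 and filled in both genotypes, Herpud1 is filled on the left in cKO alone, and Hspa5, Calr and Xbp1 are open in both.

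The WT calls differ in how much they rest on single libraries. Serpinh1, Ppib and Edem1 passed in all 25 alternative analyses, with adjusted p up to 0.0217, 0.0186 and 0.0412. P4hb was lost without WT TAC replicate 1 (adjusted p = 0.0824). Pdia3 was lost without any one of WT sham replicates 1 and 4 and WT TAC replicates 1 and 4 (adjusted p 0.0529 to 0.0806), and Fkbp10 without any one of WT sham replicates 2 and 4 and WT TAC replicates 1 and 4 (0.0543 to 0.099). Pdia4 was lost without any one of 8 libraries, namely WT sham 1, 2 and 4, all 4 WT TAC libraries and cKO TAC 4 (0.0506 to 0.115). The count of called members was 3 without WT TAC replicate 1 and 4 without WT sham replicate 4. Scaling to library totals alone, with no composition factor, moved the median of all genes up by 0.125 (log2) and gave 14 members higher and 0 lower. Over all genes that scaling changed the calls from 9.7% higher and 6.14% lower to 14.3% and 2.84%, while the members' median stayed 0.20 above that of all genes under both scalings.

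In cKO hearts TAC again raised the same 3 prolyl isomerase and collagen chaperone genes, Pdia4, P4hb and Edem1, and here Herpud1 fell. Of the 36 tested genes 7 rose and 1 fell, which is 22.2% of the members against a background of 26.5% of all genes called (14.2% higher, 12.4% lower). The median log2 fold change was 0.096 over the members and 0.0034 over all tested genes. In 9 members every cKO TAC library was above every cKO sham library (15.5% of all genes), and in Dnajb9 and Herpud1 every TAC library was below (13.8% of all genes). The share of members called in either direction was thus near the background in both genotypes. By direction, all 7 WT calls were rises, 19.4% of the members, against 9.7% of all genes higher. In cKO 7 of 36 rose, against 14.2% of all genes.

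Fkbp10 had the smallest adjusted p of the module in cKO. It read 19.1, 21.4, 24.6 and 20.8 CPM in cKO sham and 40.6, 40.4, 29.8 and 34.6 CPM in cKO TAC, a log2 change of 0.76 (SE 0.12, adjusted p = 0.000226), with the groups well apart. Ppib read 21.1, 20.9, 22.0 and 18.2 CPM against 31.5, 30.8, 24.1 and 29.4 CPM (log2 change 0.50, SE 0.096, adjusted p = 0.00126). Serpinh1 read 208, 359, 259.5 and 229 CPM against 379, 466, 404 and 405 CPM. Replicate 2 of cKO sham was nearly as high as the lowest TAC library, and the log2 change was 0.65 (SE 0.16, adjusted p = 0.00566). Edem1 read 14.8, 21.7, 9.31 and 15.2 CPM in cKO sham and 31.3, 26.5, 27.2 and 25.8 CPM in cKO TAC, which gave the largest rise among the members, 0.86 (SE 0.18, adjusted p = 0.00205).

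Herpud1 was the only member that fell in any of the comparisons. It read 295, 194.5, 199 and 386 CPM in cKO sham and 145, 131, 136 and 132 CPM in cKO TAC, a log2 change of -0.99 (SE 0.22, adjusted p = 0.00367). The cKO sham libraries were widely spread, while the 4 cKO TAC libraries lay close together and all below the lowest sham library. The call held in all 25 alternatives, at log2 changes from -1.11 to -0.76. Dnajb9, a J protein that works with BiP and on IRE1, did not overlap between the groups but did not pass: 50.1, 45.8, 46.9 and 49.0 CPM in sham and 35.4, 40.5, 44.6 and 45.3 CPM in TAC gave a log2 change of -0.21 (SE 0.13, adjusted p = 0.246). Sec61b, the beta subunit of the translocation channel, rose from 6.50 ± 1.24 to 9.97 ± 0.446 CPM (0.61, SE 0.19, adjusted p = 0.0256).

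P4hb read 251, 304, 271 and 262 CPM in cKO sham and 351, 351, 309.5 and 328 CPM in cKO TAC (log2 change 0.30, SE 0.091, adjusted p = 0.0208), and Pdia4 went from 31.6 ± 7.27 to 42.2 ± 4.16 CPM (0.42, SE 0.14, adjusted p = 0.0403). Pdia3 read 126, 173, 135 and 123 CPM in cKO sham and 165, 183, 168 and 163 CPM in cKO TAC, overlapping through cKO sham replicate 2, and did not pass here (0.29, SE 0.11, adjusted p = 0.0609), although it did with limma voom, with library totals alone and without WT sham replicate 1 or cKO sham replicate 2. Dnajc10 (log2 change 0.29) did not pass either. It did with library totals alone (0.00884), without WT sham replicate 1 (0.03) and without cKO TAC replicate 3 (0.0163). Leaving out any one of cKO sham 1, cKO sham 4, cKO TAC 1 and cKO TAC 2 brought the count of called members to 5. Each of these ended the P4hb call (adjusted p 0.0583 to 0.0721). The Sec61b call was lost without any one of cKO sham 1, 3 and 4 and cKO TAC 1, 2 and 4 (0.0515 to 0.077), and that of Pdia4 without any one of 8 libraries (WT TAC 2 and 3, cKO sham 1, 3 and 4, and cKO TAC 1, 2 and 4; 0.0501 to 0.136). Scaling to library totals alone raised the median of all genes by 0.192 and gave 20 members higher and 1 lower, while Herpud1 stayed the one that fell. Over all genes that scaling moved the calls to 26.4% higher and 5.77% lower.

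BiP and the UPR sensors did not pass in cKO hearts either. Hspa5 read 513, 514, 524 and 457 CPM in cKO sham and 369, 412, 468 and 421 CPM in cKO TAC. A TAC library at 468 CPM lay above the lowest sham library, and the log2 change was -0.27 (SE 0.12, adjusted p = 0.114). Hsp90b1 had a log2 change of -0.18 (SE 0.12), from 216, 274, 255.5 and 209 CPM to 195, 228, 208 and 208 CPM, and Calr had -0.030 (SE 0.096), from 254, 341, 315 and 274 CPM to 268, 302, 300.2 and 289.7 CPM. With library totals alone, the median over Hspa5, Hsp90b1 and the large HSP70-like chaperone gene Hyou1 went from -0.18 to 0.0082, so no direction is given for this class. Ern1 read 17.9, 14.4, 10.2 and 17.4 CPM in sham and 15.8, 15.2, 13.4 and 14.3 CPM in TAC (-0.032, SE 0.15), and Xbp1 read 61.7, 78.4, 67.4 and 60.1 CPM against 70.6, 71.9, 66.6 and 64.2 CPM (0.031, SE 0.10). Atf6 had -0.12 (SE 0.11). Eif2ak3 read 10.8, 12.3, 11.1 and 11.1 CPM in sham and 15.2, 12.7, 13.7 and 12.9 CPM in TAC, where the groups did not overlap and the log2 change was 0.27 (SE 0.14, adjusted p = 0.177). Creld2 had a log2 change of -0.0080 (SE 0.14), with 11.8, 19.3, 17.0 and 16.3 CPM in sham and 13.5, 16.1, 18.1 and 16.2 CPM in TAC.

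**Figure D3:**
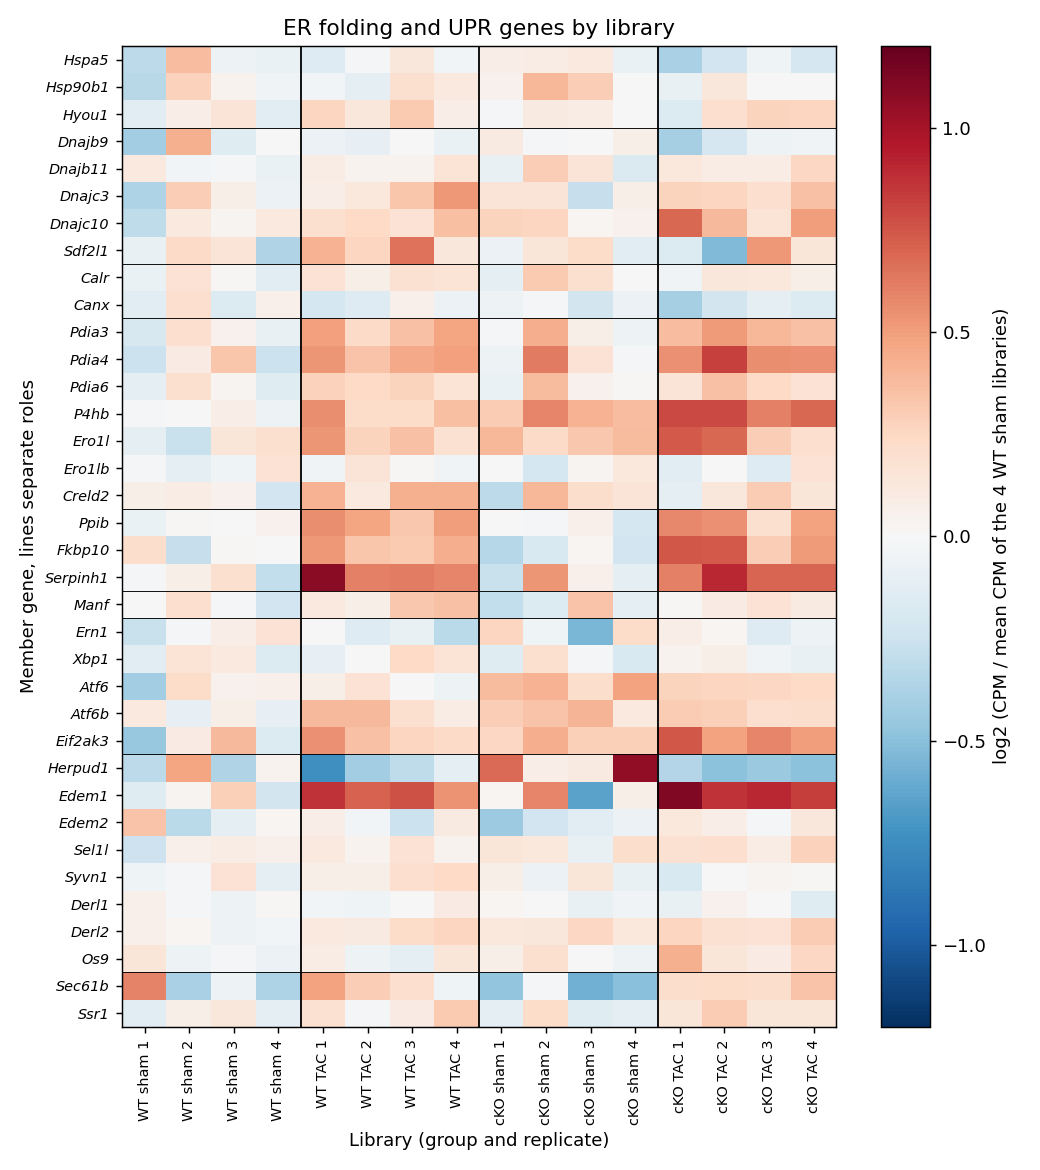
Each tested gene (rows, in the order of roles, separated by lines) in each of the 16 libraries (columns), as log2 of its CPM over the mean CPM of the 4 WT sham libraries. The rows of Serpinh1, Fkbp10, Ppib, Pdia4 and Edem1 are red across the TAC libraries of both genotypes, P4hb is red in every cKO library, and Herpud1 is darkest red in cKO sham replicate 4 and blue in all cKO TAC libraries.

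Both genotypes shared most of their calls. Of the 7 genes called in WT, 6 were also called in cKO (85.7% of the WT calls and 75.0% of the 8 cKO calls): Pdia4, P4hb, Ppib, Fkbp10, Serpinh1 and Edem1, all higher after TAC. These comparisons have no library in common, but 1 estimate of the spread from all 16 libraries serves both. Shared calls were not counted over all genes, so these shares have no background beside them. The test of the difference itself, the TAC response of cKO minus that of WT, called 0 of the 36 members and 0.0% of all genes, with the lowest adjusted p among members at 0.946 (edgeR quasi-likelihood test). DESeq2 and limma voom also called 0 members. At an unadjusted p under 0.05 there were 2 members, Fkbp10 at 0.36 (SE 0.17) and Atf6b at -0.31 (SE 0.13), against 4.7% of all genes. For Herpud1 the difference was -0.61 (SE 0.30), so its fall in cKO is not shown to differ from its WT estimate of -0.38.

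Markers of other cell types also passed after TAC. Of the 8 activated fibroblast markers 6 were higher in WT TAC and 7 in cKO TAC, and of the 8 macrophage markers 5 and 6. Of the 8 cardiomyocyte markers 2 were lower in WT TAC and 5 in cKO TAC. All 20 listed fibrillar and basement membrane collagen genes passed as higher in cKO TAC and 18 in WT TAC, with median log2 changes of 1.61 and 1.48. What part these shifts have in the rise of Serpinh1, Fkbp10, Ppib, P4hb and Edem1 was not tested. In the same comparisons the mitochondrially encoded share of counts was 21.1% to 25.8% in sham and 16.1% to 22.6% in TAC libraries.

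**Figure D4:**
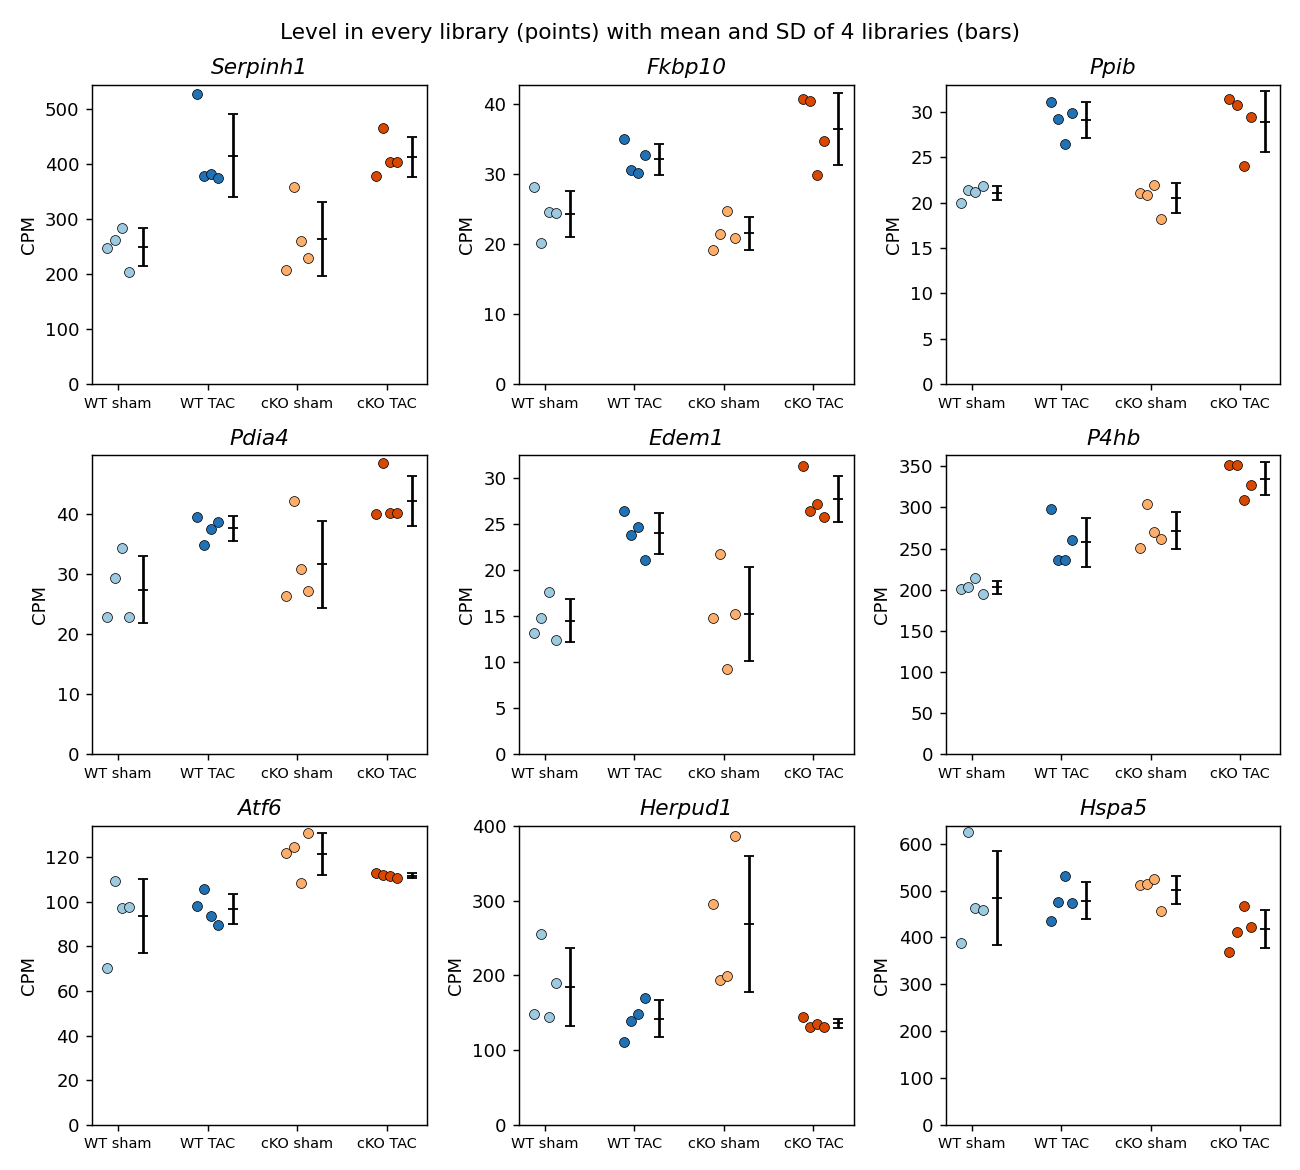
CPM of 9 genes in every library (points), with the mean and SD of the 4 libraries of each group (bars), from 0. The TAC groups of Serpinh1, Fkbp10, Ppib and Edem1 sit above the sham groups in both genotypes, P4hb climbs from 203 in WT sham to 335 in cKO TAC, the 4 cKO TAC points of Atf6 and Herpud1 are close together, and the groups of Hspa5 overlap.

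Between cKO and WT, P4hb was the member that passed. In sham hearts 1 of 36 members differed, against 1.17% of all genes (0.618% higher, 0.552% lower), and in TAC hearts 1 of 36, against 1.78% (0.598% higher, 1.18% lower). Both were P4hb, higher in cKO: its log2 difference was 0.42 (SE 0.091, adjusted p = 0.0271) in sham and 0.38 (SE 0.091, adjusted p = 0.0406) in TAC. No cKO library of P4hb was as low as the highest WT library after the same surgery. In sham hearts P4hb, Ero1l, Atf6b and Derl2 had every cKO library above every WT library (4 of 36, against 4.0% of all genes) and 0 members the reverse (3.59%). In TAC hearts this held for P4hb, Pdia4 and Atf6 (4.89% of all genes), and the reverse for Syvn1 (5.11%). The 5 tested genes nearest to it in adjusted p in sham hearts did not pass: Atf6 (0.38, SE 0.11, adjusted p = 0.0958), Atf6b (0.29, SE 0.093), Herpud1 (0.54, SE 0.21), Ero1l (0.33, SE 0.14) and Eif2ak3 (0.31, SE 0.15). In TAC hearts the next were Os9 (0.21, SE 0.091), Syvn1 (-0.18, SE 0.088), Atf6, Dnajc10 and Sdf2l1 (-0.33, SE 0.19), with adjusted p from 0.231 to 0.394.

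These P4hb calls within a surgery are sensitive to the libraries. The sham call was lost without any one of WT sham 2 and 4 and cKO sham 2, 3 and 4 (adjusted p 0.0507 to 0.0968), and the TAC call without any one of 10 libraries (WT sham 2 and 4, WT TAC 2, 3 and 4, cKO sham 1 and 4, and cKO TAC 1, 2 and 4; 0.0508 to 0.169). Fitting only the compared groups ended both (0.0618 and 0.0719), library totals alone ended the sham call (0.0524), and leaving out the 2 WT libraries rich in atrial transcripts ended the TAC call (0.0721). The log2 difference itself stayed between 0.33 and 0.47 over all alternatives for both surgeries. A DESeq2 Wald test called Atf6 beside P4hb in sham hearts, as did the edgeR fit without WT sham replicate 2 for Atf6 alone (0.0456).

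Averaged over both surgeries, which uses all 16 libraries, 2 members were higher in cKO and 0 lower, against 9.06% of all genes called (4.21% higher, 4.85% lower). P4hb was higher by 0.40 (log2, SE 0.064, adjusted p = 0.00152) and held in all 24 alternatives. Atf6, the membrane-bound transcription factor of the UPR, read 70.2, 109, 97.1 and 97.8 CPM in WT and 122, 125, 109 and 131 CPM in cKO after sham surgery. After TAC it read 98.2, 106, 93.7 and 89.6 CPM in WT and 113, 112, 111 and 110.5 CPM in cKO. The cKO TAC libraries all lay above the WT TAC libraries, while in sham hearts the groups met at 109 CPM, and the averaged log2 difference was 0.29 (SE 0.075, adjusted p = 0.0223). It was lost without WT TAC replicate 4 (0.0503) or cKO sham replicate 4 (0.0513). Eif2ak3 did not pass (0.27, SE 0.10, adjusted p = 0.102) but did without WT sham replicate 3 (0.0238), the WT sham library that also held the most atrial transcripts.

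Other members near the head of this comparison did not pass. Ero1l, the oxidase that recharges disulfide isomerases, read 12.2, 11.0, 14.6 and 15.1 CPM in WT and 17.4, 15.5, 16.6 and 17.2 CPM in cKO after sham surgery, with no overlap, and 19.1, 15.9, 16.8 and 15.0 CPM in WT TAC and 22.1, 21.3, 16.2 and 15.2 CPM in cKO TAC, with overlap. Its averaged difference was 0.25 (SE 0.095, adjusted p = 0.108). Atf6b read 27.8, 24.0, 27.0 and 24.0 CPM in WT and 31.6, 32.5, 34.1 and 27.9 CPM in cKO after sham surgery, where the groups were barely apart, and 33.6, 33.7, 29.3 and 27.4 CPM in WT TAC and 31.8, 31.3, 29.5 and 29.7 CPM in cKO TAC. Dnajc10, a J protein with disulfide reductase activity, had an averaged difference of 0.18 (SE 0.079, adjusted p = 0.169), with sham levels of 33.2, 44.4, 42.0 and 44.5 CPM in WT and 49.5, 48.9, 41.6 and 42.6 CPM in cKO and TAC levels of 46.8, 48.4, 46.2 and 52.6 CPM in WT and 66.0, 53.8, 46.0 and 58.0 CPM in cKO. In the same averaged comparison 5 of 8 macrophage markers, 3 of 8 fibroblast markers and 8 of 20 collagen genes were higher in cKO, against 4.21% of all genes. Lower in cKO were 2 of 8 cardiomyocyte markers and 3 of 5 tested atrial markers, against 4.85% of all genes. Their part in the P4hb and Atf6 values was not tested.

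**Figure D5:**
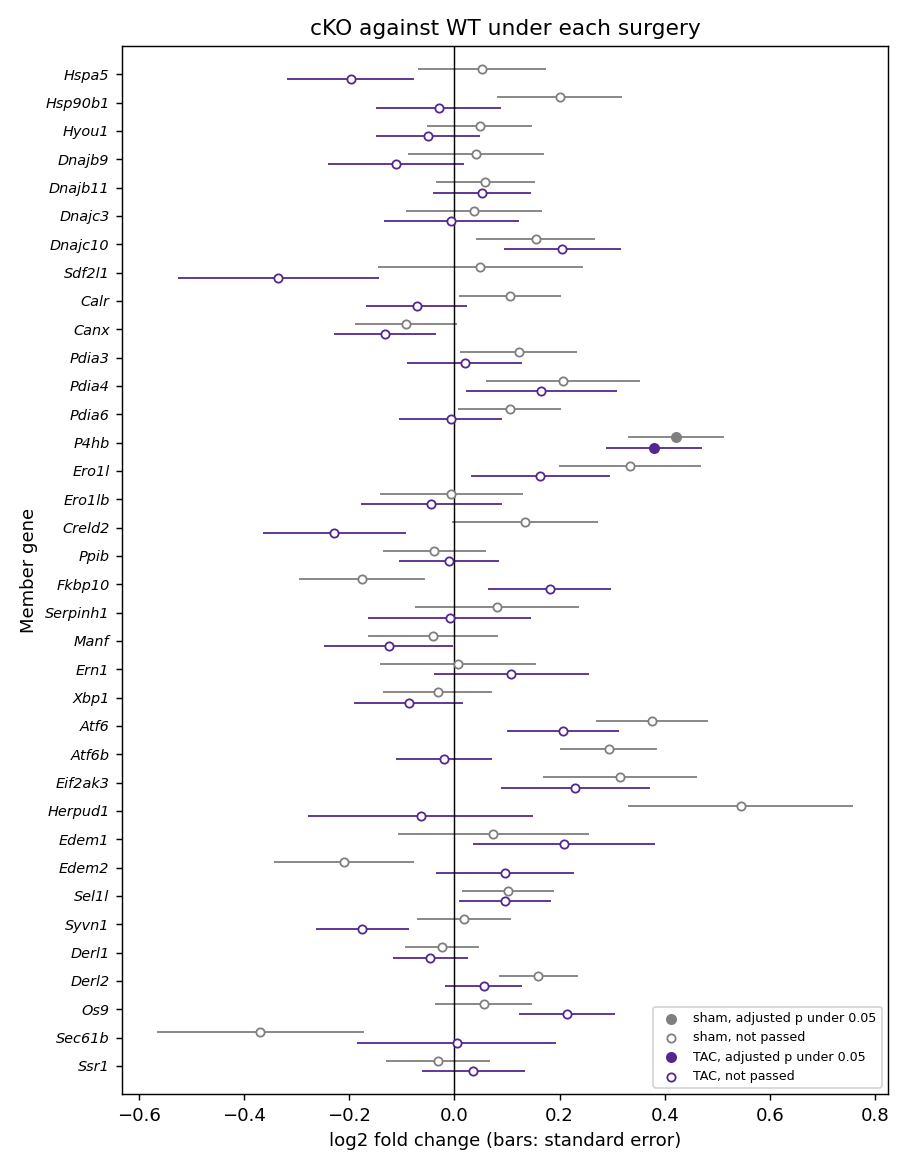
Log2 difference between cKO and WT for each tested gene in sham (grey) and TAC (purple) hearts, with bars of 1 standard error and filled points where the adjusted p was under 0.05. P4hb is filled under both surgeries near 0.4, Herpud1 has the largest sham estimate (0.54) with a wide bar, and most other points lie within 0.2 of 0.

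The remaining members passed in no comparison. Derl1, a derlin of the degradation channel, ranged from 66.9 to 79.3 CPM over the 16 libraries, and its log2 changes after TAC were 0.0045 in WT and -0.017 in cKO (SE 0.071 for each). Sel1l and Syvn1, which form the ubiquitin ligase of ER-associated degradation, had TAC changes of 0.094 and 0.15 in WT and 0.090 and -0.049 in cKO, with SE up to 0.089. Syvn1 overlaps Mrpl49 on the opposite strand, whose counts equal 105% of its own. Syvn1 read 32.6, 32.6, 35.6 and 36.7 CPM in WT TAC and 27.4, 31.2, 31.8 and 31.3 CPM in cKO TAC, without overlap, while sham hearts gave 29.9, 30.7, 35.0 and 28.8 CPM in WT and 32.7, 29.6, 34.5 and 29.2 CPM in cKO. Os9, a lectin that hands glycoproteins to this ligase, read 59.5, 53.4, 51.6 and 61.9 CPM in WT TAC and 74.9, 61.6, 59.9 and 66.3 CPM in cKO TAC, and in sham 61.9, 53.4, 54.8 and 53.1 CPM in WT and 58.7, 63.9, 55.8 and 53.6 CPM in cKO. Sdf2l1, a BiP partner, was low and scattered: after sham surgery it read 7.19, 8.96, 8.50 and 5.95 CPM in WT and 7.30, 8.48, 8.93 and 6.99 CPM in cKO, and after TAC 10.2, 9.17, 12.0 and 8.40 CPM in WT and 6.81, 5.31, 10.9 and 8.46 CPM in cKO. Its log2 change after TAC in WT, 0.38, was the largest rise among the members not called there. The other members had these log2 changes after TAC in WT and cKO: Hyou1 0.20 and 0.10, Dnajb11 0.086 and 0.080, Dnajc3 0.28 and 0.24, Canx -0.087 and -0.13, Manf, a secreted survival factor, 0.22 and 0.14, Derl2 0.18 and 0.073, and Ssr1 of the translocon 0.15 and 0.22, with adjusted p of 0.11 or more. Counts of Manf and Derl2 may include reads of the overlapping genes Dcaf1, Rbm15b and Mis12. Edem2 read 16.7, 10.6, 12.2 and 13.5 CPM in the WT sham libraries and 14.0, 13.0, 11.1 and 14.3 CPM in WT TAC, and in cKO 9.78, 11.3, 12.1 and 12.7 CPM in sham and 14.4, 14.0, 13.1 and 14.5 CPM in TAC, apart by group in cKO alone (log2 change 0.29, SE 0.13, adjusted p = 0.115).

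Within a group, some libraries were the highest or lowest for many members. In WT sham, replicate 2 was the highest of the 4 libraries for 14 of the 36 members, against 20.4% of all tested genes. Replicates 1 and 4 were each the lowest for 13 of the 36 members, against 32.4% and 21.9% of all genes, so replicate 1 was near the share of all genes. For Hspa5, Hsp90b1, Dnajb9, Dnajc3, Pdia3 and Atf6 replicate 2 was the highest and replicate 1 the lowest (6 of 36 members, against 10.4% of all genes). In cKO sham, replicate 2 was the highest for 18 of the 36 members, against 28.2% of all genes. After TAC, WT replicate 1 was the highest for 12 of the 36 members, near the share of all genes (28.5%). WT TAC replicate 2 was the lowest for 12, against 21.9% of all genes. WT TAC replicate 4 was the highest for 12 and the lowest for 12, against 26.9% and 26.5%. Replicate 1 of cKO TAC was the lowest for 14, against 29.7%. The coefficient of variation of Herpud1 was 28.2% in WT sham and 33.9% in cKO sham but 4.68% in cKO TAC, and that of Atf6 went from 17.7% in WT sham to 0.869% in cKO TAC.

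Genes with an ERSE in their promoter window were not among the calls. Of the 10 genes with a match 9 were tested, and 0 were called in any of the 6 comparisons, while 6 of the 22 tested genes with a window and no match passed in WT TAC and 7 in cKO TAC, where 15.8% and 26.5% of all genes were called. Between cKO and WT, 1.17% of all genes were called in sham hearts, 1.78% in TAC hearts and 9.06% on the average, and 0.0% for the difference in TAC response. The 9 genes are too few to tell 0 calls from such shares. With library totals alone Pdia6 and Creld2, which hold a match, passed in WT TAC (adjusted p = 0.0246 and 0.0239) and Dnajc3 and Pdia6 in cKO TAC (0.0286 and 0.0287). In WT TAC Pdia6 also passed with replicate number as a block (0.0497) and Creld2 without cKO sham replicate 1 (0.0498). The median log2 change over the 9 was 0.14 in WT TAC (range -0.087 to 0.35) and -0.030 in cKO TAC (range -0.27 to 0.24). Herpud1, which has the ERSE-II match printed above, was the member that fell in cKO TAC, and the P4hb and Serpinh1 windows held no match to either motif. These counts describe the members and are not a test of the motif.

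The wider pathway gave the following counts, to be read against all tested genes, of which 9.7% were higher and 6.14% lower in WT TAC and 14.2% higher and 12.4% lower in cKO TAC. Of 21 tested genes of the translocon, signal peptidase and oligosaccharyl transferase, 2 rose in WT TAC and 3 in cKO TAC. Sec61a1, the channel itself, rose by 0.51 (SE 0.11, adjusted p = 0.00466) in WT and 0.50 (SE 0.11, adjusted p = 0.00286) in cKO, and Stt3a, a catalytic subunit of the transferase, by 0.38 (SE 0.098) and 0.49 (SE 0.097). Of 27 other folding and disulfide enzymes, 6 rose and 1 fell in WT TAC and 5 rose in cKO TAC, led in both by Ppic, which encodes cyclophilin C (1.09, SE 0.16, and 1.51, SE 0.16), with Txndc5, an isomerase of the same family as Pdia4 (0.49, SE 0.12, and 0.74, SE 0.12). Of 24 other genes of ER-associated degradation, 3 rose in WT TAC, and 2 rose and 2 fell in cKO TAC, where the ubiquitin ligase gene Rnf5 fell by 0.62 (SE 0.11, adjusted p = 0.000821).

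Genes for collagen-modifying enzymes and chaperones rose more often than all tested genes in both genotypes, although 13 of 20 did not pass in WT. Of the 20, 6 rose and 1 fell in WT TAC and 10 rose and 1 fell in cKO TAC. Of all tested genes 9.7% were higher in WT TAC and 14.2% in cKO TAC. The excess of the list was not tested. Sparc rose in both genotypes with the smallest adjusted p of the list (2.99e-05 in WT and 1.04e-05 in cKO, edgeR quasi-likelihood test). P4ha3 rose by 2.73 (SE 0.649) in WT, from a mean of 0.261 to 1.797 CPM. P3h3, a collagen prolyl 3-hydroxylase, rose by 0.88 (SE 0.15) and 1.14 (SE 0.15), and Plod2, a lysyl hydroxylase, by 1.07 (SE 0.17) in cKO. Of 27 genes for vesicle coats, cargo receptors and KDEL receptors, 1 rose in WT TAC, and 4 rose and 2 fell in cKO TAC. Kdelr3, a receptor that returns chaperones such as BiP from the Golgi to the ER, led with 0.98 (SE 0.18, adjusted p = 0.00162) in WT and 1.47 (SE 0.18, adjusted p = 4.37e-05) in cKO. Of 18 cytosolic and mitochondrial chaperones, 1 rose and 1 fell in WT TAC and 3 fell in cKO TAC, the mitochondrial Hspd1, Hspa9 and Hspe1.

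Regulators of the UPR other than the members gave counts near those shares in WT. Of 15 tested, 2 rose and 1 fell in WT TAC and 5 rose and 1 fell in cKO TAC. Creb3l1, an ATF6-like membrane factor known for driving collagen genes, rose by 0.78 (SE 0.20, adjusted p = 0.0143) in WT, and its relative Creb3l2 by 1.01 (SE 0.20, adjusted p = 0.00225) in cKO. Bak1, a pro-apoptotic BCL2 family gene, rose in both (0.53, SE 0.10, and 0.39, SE 0.10). Map3k5, the kinase that acts below IRE1, fell in both (-0.29, SE 0.097, and -0.34, SE 0.098).

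Some of the genes listed as targets of the PERK and ATF4 arm were higher in cKO. Whether PERK had a part in this was not tested. Of 19 tested, 5 were higher in cKO sham and 0 lower, 2 were higher in cKO TAC, and 6 were higher and 1 lower on the average of both surgeries, where 0.618%, 0.598% and 4.21% of all genes were higher. TAC against sham gave 3 higher and 1 lower in WT, and 1 higher and 2 lower in cKO. Over all genes 9.7% were higher and 6.14% lower in WT, and 14.2% and 12.4% in cKO. Atf4 itself rose in WT (0.34, SE 0.092, adjusted p = 0.0186), as did Phgdh. Nupr1 rose and Vldlr fell in both genotypes, and Chac1 fell in cKO. Mthfd2, a mitochondrial folate enzyme, stood in sham hearts at 3.65 ± 1.46 CPM in WT and 23.6 ± 8.74 CPM in cKO (log2 difference 2.69, SE 0.34, adjusted p = 0.00117), and Asns, asparagine synthetase, at 1.89 ± 0.24 and 8.55 ± 2.73 CPM (2.17, SE 0.31, adjusted p = 0.0015). Chac1, which degrades glutathione, was higher by 1.40 (SE 0.29, adjusted p = 0.024). In the same sham comparison Hspa5 differed by 0.052 (SE 0.12) and Dnajb9, a gene of the IRE1 arm, by 0.041 (SE 0.13). Other members had larger estimates, up to 0.54 for Herpud1, and the 5 sensor and transcription factor genes had a median of 0.29. Of the 36 members, 26 were above 0 and 10 below, with a median of 0.057 against -0.013 over all genes, and P4hb alone passed.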

How the data were processed

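Left ventricular RNA of 16 mice was sequenced. The authors deposited unnormalized read counts for each Ensembl ID in 1 table, made from paired-end reads (per the labels) with fastp 0.22.0, HISAT2 2.0.5 and featureCounts 2.0.6 on GRCm39, per the submitters' processing notes. The annotation release and strandedness are not given in the sources used here. A GRCm38 annotation matched 51880 of 57186 IDs to symbols (99.5% of counts), so no coordinates of the counted genes are given; exon lengths came from GENCODE and promoters from RefSeq GRCm38.p6.

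The tests used edgeR 4.0.16 under R 4.3.3. The filter filterByExpr kept 15206 genes, and Derl3 was left out by it. A robust quasi-likelihood fit with TMM factors, giving each group its own mean, took in all 16 libraries (12 residual degrees of freedom, biological coefficient of variation 16.5%), and p-values were adjusted by Benjamini-Hochberg over all tested genes in each of 6 comparisons. SE was taken from the F statistic, and CPM is the value of the edgeR function cpm, with library totals multiplied by TMM factors. Depth of 12946878 to 16347388 counts gave the tested members 73 to 8374 counts per library. The model was tested on simulated counts. DESeq2 1.42.0 and limma 3.58.1 served as alternatives.

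The members and lists were chosen with earlier results of these data known. Values in every library are given for 9 members fixed by name and for the 6 members with the smallest adjusted p in each comparison, and for up to 4 genes of each of 9 other lists the changes are given. Pdia4, Sec61b and Dnajb9 were added after their values were seen.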

Additional observations from a re-analysis of the deposited data

Results flagged for a closer look

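In each group of 4 libraries, the highest or lowest library of a member was compared with its nearest neighbour by Dixon's ratio. Of 144 such groups 13 passed the 95% limit, where chance flags about 5%. Those that touch a called member come first. Serpinh1 in WT TAC had its highest value in replicate 1, 528.0 CPM, against 374 to 383 CPM in the others. Without that library Serpinh1 remained called in WT. Pdia4 in cKO TAC was highest in replicate 2, at 48.44 CPM against 40.0 to 40.3 CPM, and its call was lost without that library (adjusted p = 0.136). Sec61b was highest in cKO sham replicate 2, at 8.347 CPM against 5.66 to 6.06 CPM, and in cKO TAC replicate 4, at 10.64 CPM against 9.71 to 9.79 CPM. The Sec61b call was lost without the second of these (adjusted p = 0.0646).

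Members with no call were flagged too. Hspa5 was lowest in cKO sham replicate 4, at 457.2 CPM against 513 to 524 CPM. Creld2 was lowest in WT sham replicate 4, at 12.53 CPM against 15.1 to 15.5 CPM, and in WT TAC replicate 2, at 15.89 CPM against 19.6 to 19.7 CPM. In cKO TAC replicate 1, Hyou1 (45.98 CPM against 59.4 to 61.8 CPM) and Syvn1 (27.44 CPM against 31.2 to 31.8 CPM) were lowest. Sel1l was lowest in WT sham replicate 1, at 48.49 CPM against 60.2 to 61.3 CPM. Derl2 was highest in cKO sham replicate 3, at 32.9 CPM against 30.2 to 30.5 CPM. Ssr1 was highest in cKO sham replicate 2, at 61.99 CPM against 48.2 to 49.3 CPM, and in cKO TAC replicate 2, at 65.94 CPM against 58.8 to 58.9 CPM.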

How the results depend on the processing

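Alternatives were another size factor, library totals alone, 2 other filters, DESeq2, limma voom, a fit of just the groups under comparison, a block for replicate number, each library left out and, chosen after seeing the data, the 2 WT libraries with most atrial transcripts left out. No value reversed past the threshold; 258 of 5328 member values changed sign with no call in either setting. With library totals alone the called members were 14 in WT TAC, 21 in cKO TAC and 0 in cKO sham against WT sham, with the median of all genes shifted by 0.125 and 0.192 (log2) in the TAC comparisons. The DESeq2 Wald test gave 2 in cKO sham. The compared groups alone gave 0 in cKO sham and 0 in cKO TAC against WT TAC, and leaving out the 2 atrial-rich libraries gave 0 in the latter and ended the Pdia3 and Fkbp10 calls in WT TAC (adjusted p = 0.0647 and 0.077); the cause was not tested. With 1 library left out the counts ran from 3 to 8 in WT TAC, 5 to 10 in cKO TAC, 0 to 1 in cKO sham against WT sham, 0 to 1 in cKO TAC against WT TAC, 0 to 0 for the interaction and 1 to 3 for the average. The median SE of a member after TAC was 0.12 (log2), and no member with a change under 0.30 in size after TAC was called with all libraries.

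The labels name no batch. Deviations of same-numbered libraries correlated between -0.16 and 0.229, and 6 of 16 libraries correlated best with their own number. Whether replicate numbers pair the mice cannot be told from these values. With the replicate block the called members were 0 in cKO TAC against WT TAC (P4hb adjusted p = 0.0532), 9 in WT TAC, 8 in cKO TAC, 1 in cKO sham against WT sham and 2 on the average, so the block changed no other count by more than 1.5 times.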
